A study of Mus musculus with 4 samples.

Results

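Nucleoporins build the nuclear pore complex, and nuclear transport receptors carry proteins and RNA through it. Their genes were taken by symbol: Nup followed by a number, the importin alpha and beta genes Kpna and Kpnb, the importins Ipo, the exportins Xpo and the transportins Tnpo. This gave 43 of the 16861 genes listed in the data, of which 20 encode nucleoporins and 23 encode receptors. The receptors comprised 6 importin alphas, 11 import receptors of the importin beta family and 6 exportins. The study examined germinal vesicle oocytes, which are fully grown and still arrested before meiotic maturation, and asked how they differ between the non-surrounded nucleolus (NSN) and the surrounded nucleolus (SN) configuration of chromatin. The oocytes came from 3-week-old female C57BL/6J mice. After the cumulus cells had been stripped off, Hoechst staining in medium with milrinone, which holds meiotic arrest, served to sort them by where the DNA lies: spread through the nucleus in NSN, gathered at the edge of the nucleolus in SN. The zona pellucida was removed with pronase, and RNA was measured by Smart-seq2, in which cDNA is primed at the poly(A) tail and amplified, in 2 libraries per configuration of 15 oocytes each.

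As background, the nuclear pore complex is a ring-shaped channel made of stacked scaffold rings, a central channel lined with flexible phenylalanine-glycine repeats, a basket on the nuclear side and filaments on the cytoplasmic side. Importin alpha recognises a nuclear localisation signal and travels with importin beta, whereas other importins and transportins bind their cargo directly and exportins carry cargo out. The small GTPase Ran sets the direction of transport. In the oocyte these factors serve a very large nucleus, the germinal vesicle, and messages stored in the cytoplasm supply later maturation and the early embryo.

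NSN replicates 1 and 2 held 17408945 and 17911559 read pairs. SN replicates 1 and 2 held 17069772 and 17998361. Values are FPKM, fragments (read pairs) of a gene relative to its length and to the library total. All 12 oocyte marker genes were listed, with summed FPKM of 22636 and 21221 in NSN and 15209 and 14433 in SN, the most abundant being Zp3, and 8 of the 12 were called lower in SN by the test described below. Of 14 granulosa and cumulus cell markers 9 were listed, and their sum was 9.61 and 13.7 FPKM in NSN and 14.0 and 13.8 in SN, most of it Cyp19a1. Of 9 markers of stroma, theca and blood only Pecam1 and Dcn were listed, with sums of 5.32 and 6.71 FPKM in NSN and 7.23 and 6.73 in SN. Dcn alone had 0.829 and 1.76 FPKM in NSN and 2.72 and 2.18 FPKM in SN (log2 fold change 0.76, unadjusted p = 0.026, adjusted p = 0.11 with limma), and its part in the results below was not tested. The markers Amh, Amhr2, Foxl2, Ptx3 and Tnfaip6 were not among the listed genes, and no gene of these other 2 lists was called (4 and 2 tested). FPKM are shares of a library: 39.8% and 38.7% of the NSN read pairs and 35.5% and 35.4% of the SN read pairs belonged to the top 100 genes, and the part of this difference, and of the lower oocyte markers, in the results below was not tested. More of a transcript per oocyte and less of the other RNA cannot be told apart on this scale.

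The members covered a wide range of levels. Their mean over the 4 libraries went from 0.0736 FPKM for Kpna1 to 1492 FPKM for Kpna2, with a median of 5.74 FPKM. Kpna2, Kpna7, Nup35 and Nup37 were the 4 members above 100 FPKM. All 43 together summed to 2868 and 2961 FPKM in NSN and 3125 and 2912 FPKM in SN, and Kpna2 alone took 49.2% and 49.4% of this sum in NSN and 52.3% and 50.2% in SN. The median was higher among the 20 nucleoporins (20.9 FPKM) than among the 23 receptors (2.35 FPKM). A filter at a mean of 0.5 FPKM left 37 members, and the 6 below it were Nup210, Nup210l, Kpna1, Kpna4, Xpo7 and Xpot.

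**Figure D1:**
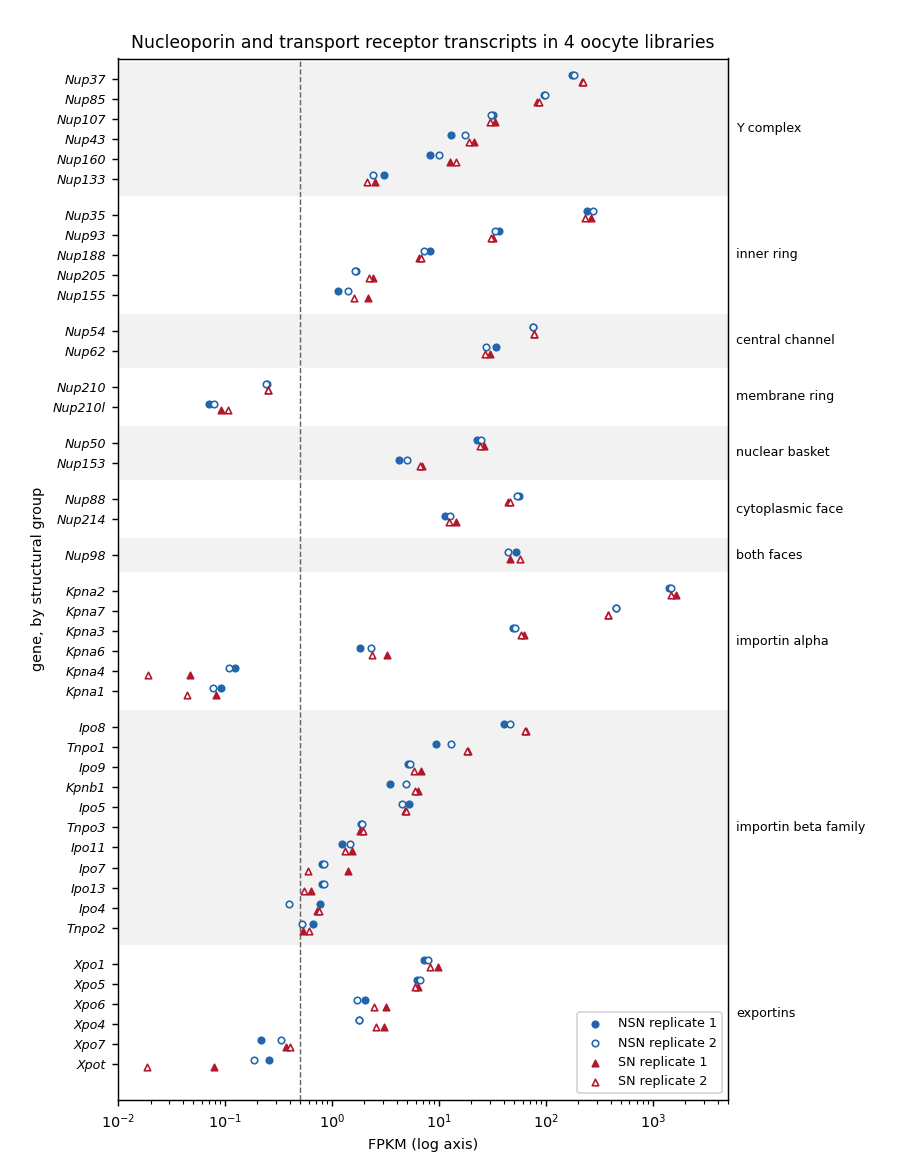
FPKM of the 43 members in each of the 4 libraries on a log axis, by structural group, with circles for NSN and triangles for SN; the dashed line is the filter of 0.5 FPKM. Kpna2 is highest at 1410 to 1633 FPKM, and the 6 members left of the line were not tested.

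To ask whether these transcripts differ between the configurations, log2(FPKM + 0.5) was compared with limma over all 11672 genes at or above the filter. A gene was called at a Benjamini-Hochberg adjusted p under 0.05 with a fold change of at least 1.2. On this scale the change of genes with low FPKM is understated. Among the members, 3 of 37 were called higher in SN (8.11%) and 0 lower, where 7.93% of all genes tested were called, 5.95% higher and 1.98% lower. The 3 were Ipo8, Nup37 and Tnpo1. The share of members called was thus close to that of all genes. At an unadjusted p under 0.05, 11 members were higher (29.7%) and 3 lower (8.11%) in SN, against 23.8% and 7.86% of all genes. Both SN libraries lay above both NSN libraries for 16 members (43.2%) and below them for 6 (16.2%), against 44.8% and 17.8% of all genes, and the groups overlapped for 15. After the median scaling described below these counts were 12 (32.4%) and 12 (32.4%), against 29.4% and 30.1% of all genes. With 2 libraries against 2, the smallest two-sided p of an exact permutation test on 1 gene is 0.333, and each p rests on the variance that limma pools over genes.

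The median log2 fold change of SN over NSN was 0.11 for the 37 members and 0.14 for all genes tested, and it became -0.043 for the members and 0.005 for all genes when each library was scaled to its median ratio. The log2 fold change was above 0 for 24 members (64.9%, against 66.7% of all genes) and below 0 for 13 on the FPKM as deposited, and above 0 for 18 (48.6%, against 50.6%) and below 0 for 19 after median scaling, with 6 members changing sign. After this scaling 257 genes (2.20%) were called, 78 higher and 179 lower in SN (30.4% higher), against 695 higher and 231 lower (75.1% higher) as deposited. As deposited, 51 genes were called higher and 97 lower without SN replicate 1, 4 higher and 7 lower without SN replicate 2, 0 without NSN replicate 1 (2278 at an unadjusted p under 0.05), and 1368 higher and 317 lower without NSN replicate 2. With the median-scaled values of all 4 libraries limma called no member, while 5 members were higher (13.5%) and 5 lower (13.5%) at an unadjusted p under 0.05, against 12.4% and 14.7% of all genes. Limma's voom on read pairs recovered from the FPKM, with the same scaling, called 9 members, 5 higher (13.5%) and 4 lower (10.8%), against 6.38% and 8.26% of all genes. Values given below as relative to all genes are the log2 fold change less the median of all genes, 0.14.

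**Figure D2:**
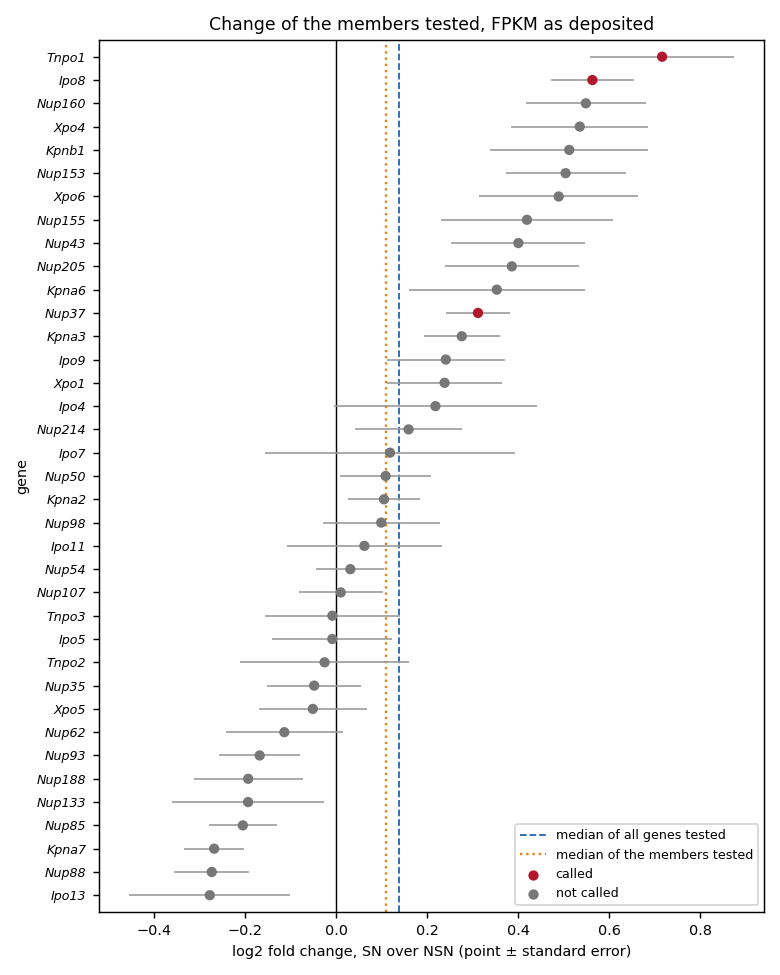
Log2 fold change of SN over NSN with its standard error for the 37 members tested, on the FPKM as deposited. The members range from -0.28 (Ipo13) to 0.72 (Tnpo1), and their median (dotted, 0.11) lies beside that of all genes (dashed, 0.14); after median scaling these medians are -0.043 and 0.005.

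The Y complex forms the outer rings of the pore scaffold. The 6 members grouped under it here were all tested. Sec13, Seh1l and Ahctf1, which also belong to it, are outside the symbol rule and are given with the other pore genes. Nup37, a peripheral subunit bound to Nup160 (ENSMUSG00000035351.18, chromosome 10 of GRCm39 from 87982840 to 88014264), had 173 and 181 FPKM in NSN and 217 and 222 FPKM in SN. Both SN libraries were higher than both NSN libraries, and the replicates of a group lay close together. Its log2 fold change was 0.31 ± 0.07 (standard error, SE, adjusted p = 0.049 with limma), or 0.17 relative to all genes. The limma adjusted p of Nup37 was 0.22 after median scaling, 0.069 to 0.20 when a single library was dropped, and 0.018 to 0.22 over the alternatives that kept all libraries. Nup85, a core subunit of the complex, had 95.8 and 96.7 FPKM in NSN and 82.0 and 84.8 FPKM in SN. Here both SN libraries were lower than both NSN libraries, but the log2 fold change of -0.21 ± 0.07 (SE) missed the threshold (limma adjusted p = 0.12). The adjusted p of Nup85 was 0.016 to 0.25 over the alternatives that kept all libraries, and it was called with voom and median scaling. Nup160, a large scaffold subunit, had 8.28 and 9.91 FPKM in NSN and 12.6 and 14.4 FPKM in SN. Its libraries did not overlap either, and its log2 fold change of 0.55 ± 0.13 (SE) missed the threshold (limma adjusted p = 0.053), with 0.023 without NSN replicate 2, 0.098 to 0.19 without any other library, and 0.0051 to 0.10 over the alternatives that kept all libraries. The other 3 of these subunits, Nup107, Nup133 and Nup43, had log2 fold changes from -0.19 to 0.40 and were not called, and that of Nup107 turned from 0.0094 to -0.14 after median scaling.

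The makeup of the transcripts of these 6 genes can be given without any scaling of the libraries, as each gene's percent of their summed FPKM. Nup37 made up 53.3% and 53.5% of the sum in NSN and 59.0% and 59.7% in SN. Nup85 made up 29.5% and 28.6% in NSN and 22.3% and 22.8% in SN. The gap between the configurations was wider than that between replicates for both genes, whose shares of the same sum are not independent. The ratio of Nup85 to Nup37, a pair chosen after the values were seen, was 0.553 and 0.535 in NSN and 0.377 and 0.382 in SN. With Sec13 and Seh1l added to the sum, Sec13 made up 57.8% and 56.1% in NSN and 49.7% and 49.1% in SN, Nup37 21.5% and 22.6% in NSN and 28.2% and 29.2% in SN, and Nup85 11.9% and 12.1% in NSN and 10.7% and 11.1% in SN. The groups did not overlap for these 3 genes in this sum either. Among the 6 genes of the first sum, mean levels went from 2.51 FPKM for Nup133 to 198 FPKM for Nup37.

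The inner ring links the scaffold to the membrane and to the central channel, and none of its 5 members was called by the test described above. Nup205 was called with voom, and Nup93 with voom and median scaling. Nup35, a small membrane-binding subunit, had 238 and 273 FPKM in NSN and 265 and 230 FPKM in SN. Its groups overlapped, and the log2 fold change was -0.049 ± 0.10 (SE, adjusted p = 0.77 with limma). After median scaling it was -0.20 (limma adjusted p = 0.23), with both SN libraries below both NSN libraries. Read pairs of Nup35 are uncertain, because 43.4% of the 100-base windows of its annotated transcript also occur in transcripts of other genes, chiefly Gm4353, which was listed at 4.52 to 7.67 FPKM. The other 4 members ranged in log2 fold change from -0.19 to 0.42. Both SN libraries lay above both NSN libraries for Nup205 and Nup155, and below them for Nup93 and Nup188. Of the exon length of Nup188, 36.6% is shared with other genes, chiefly Sh3glb2, in a count without strand, so its level is uncertain too.

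The central channel carries the repeats that transport receptors bind. Nup54 had 75.7 and 75.2 FPKM in NSN and 77.2 and 76.9 FPKM in SN. Both SN libraries lay above both NSN libraries, but by little. Its log2 fold change of 0.030 ± 0.07 (SE, adjusted p = 0.81 with limma) was smaller than its standard error and became -0.12 after median scaling. Its exons overlap those of other genes, chiefly Art3, over 13.5% of their length. Nup62, its partner in the channel, had a mean of 29.7 FPKM and a log2 fold change of -0.11, with overlapping groups. Nup58, the other partner, was not analysed here.

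In the membrane ring, 2 genes are members, and both had low levels; Ndc1 and Pom121, which also sit in the pore membrane, had means of 9.49 and 2.53 FPKM and are among the other pore genes. Nup210, a membrane-spanning glycoprotein of the pore, had 0.238 to 0.253 FPKM over the 4 libraries, from 30 to 32 read pairs per library. Nup210l, a paralogue known from the testis, had 0.0703 and 0.0781 FPKM in NSN and 0.0922 and 0.107 FPKM in SN, from 7, 8, 9 and 11 read pairs. Both were below the filter and were not tested. The encoded proteins share 44.7% of 1863 aligned residues.

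In the nuclear basket, Nup153 and Nup50 had means of 5.68 and 24.3 FPKM. Their log2 fold changes were 0.50 and 0.11, neither was called by the test described above, and that of Nup50 became -0.043 after median scaling. Nup153 was called where the filter stood at a mean of 5 FPKM, with voom, and with voom and median scaling. The transcript level of Nup50l was not analysed here. On the cytoplasmic face, Nup88 had 55.2 and 53.1 FPKM in NSN and 43.6 and 45.7 FPKM in SN. Both SN libraries were lower, and the log2 fold change was -0.27 ± 0.08 (SE, adjusted p = 0.082 with limma), or -0.41 relative to all genes. The adjusted p of Nup88 was 0.011 to 0.17 over the alternatives that kept all libraries, and it was called with voom and median scaling, and also where the filter stood at a mean of 5 FPKM. Nup214, to which Nup88 binds, had a mean of 12.6 FPKM and a log2 fold change of 0.16, with overlapping groups. Nup42, listed under its older symbol Nupl2 and so outside the rule, had 4.26 to 4.85 FPKM. Nup88 made up 83.0% and 81.0% of the sum of Nup88 and Nup214 in NSN and 75.4% and 78.7% in SN. Nup98 sits on both faces of the pore and was not counted with the Y complex here. It had 51.6 and 44.0 FPKM in NSN and 46.2 and 56.5 FPKM in SN. Its groups overlapped, and its log2 fold change was 0.10 ± 0.13 (SE, adjusted p = 0.63 with limma), or -0.055 after median scaling.

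Importin alphas were dominated by 2 genes. Kpna2, importin alpha 1 (ENSMUSG00000018362.16, chromosome 11 of GRCm39 from 106879455 to 106890367), had 1410 and 1464 FPKM in NSN and 1633 and 1462 FPKM in SN. SN replicate 2 lay within the NSN range, and the log2 fold change was 0.10 ± 0.08 (SE, adjusted p = 0.40 with limma), or -0.050 after median scaling, 0.024 without SN replicate 1 and 0.18 without SN replicate 2. The level of Kpna2 is uncertain, since 88.5% of the 100-base windows of its annotated transcript also occur in transcripts of other genes, chiefly Kpna2rt. Kpna2rt itself was listed at 0.0289 to 0.309 FPKM, from 1 to 11 read pairs. Kpna7, the oocyte-enriched importin alpha (ENSMUSG00000038770.18, chromosome 5 from 144920329 to 145020840), had 454 and 449 FPKM in NSN and 375 and 374 FPKM in SN. The replicates of each configuration were within a few FPKM of each other, and both SN libraries were lower. Its log2 fold change was -0.27 ± 0.07 (SE), which missed the threshold (limma adjusted p = 0.057), and it was -0.41 relative to all genes. The limma adjusted p of Kpna7 ranged from 0.0059 to 0.17 over the alternatives that kept all libraries, and its log2 fold change stayed between -0.28 and -0.26 without each library in turn. No 100-base window of the annotated Kpna7 transcript of 1500 bases occurred in a transcript of another gene. The length recovered from its FPKM was 2575 bases, so not all of the counted exons were searched. Of its annotated exon length 1.59% is shared, chiefly with Arpc1a.

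Kpna3, importin alpha 4, had 48.6 and 50.9 FPKM in NSN and 62.4 and 58.3 FPKM in SN. Both SN libraries were higher, with a log2 fold change of 0.28 ± 0.08 (SE) that missed the threshold (limma adjusted p = 0.083, and 0.037 to 0.37 over the alternatives that kept all libraries). Kpna6, importin alpha 7, was much less abundant, at a mean of 2.43 FPKM, and was not called. Kpna1 and Kpna4 had few read pairs, 4 to 8 and 3 to 19 per library, and were not tested. Kpna4 had 19 and 17 read pairs in NSN and 7 and 3 in SN.

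Within the importin alphas, Kpna7 made up 23.7% and 22.8% of the summed FPKM in NSN and 18.1% and 19.7% in SN. Kpna2 made up 73.7% and 74.4% in NSN and 78.7% and 77.1% in SN. The configurations did not overlap in either share. Because these genes held most of the sum, a lower share of one goes with a higher share of the other. The FPKM of Kpna2 itself overlapped between the configurations. The ratio of Kpna7 to Kpna2, chosen after the values were seen, rests on the same FPKM. It was 0.322 and 0.307 in NSN and 0.230 and 0.256 in SN. By sequence the family falls into subgroups: the proteins of Kpna3 and Kpna4 were 85.8% identical and those of Kpna1 and Kpna6 81.6%, whereas Kpna7 shared 48.5% with Kpna2 and 38.9% to 42.7% with the other 4. Close relatives were not equally abundant, as the means of Kpna3 and Kpna4 were 55.0 and 0.0742 FPKM.

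**Figure D3:**
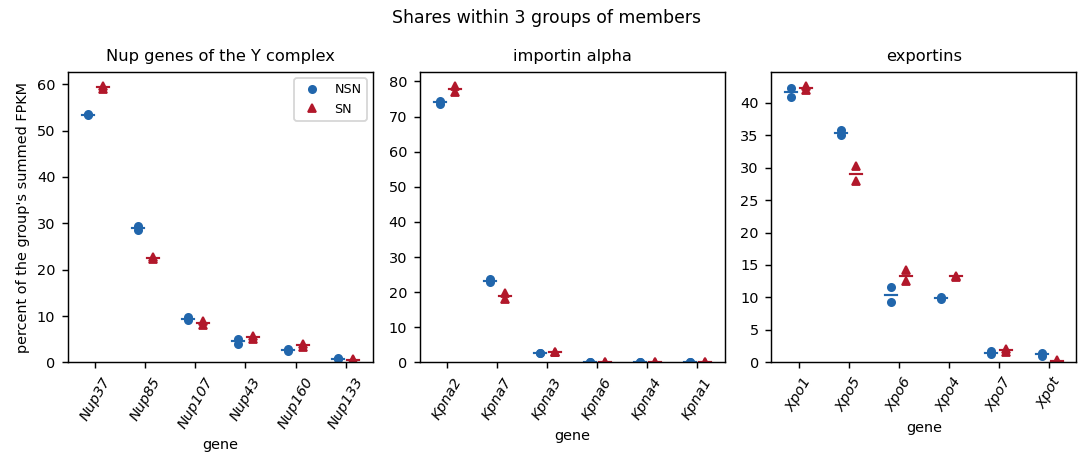
Percent of the summed FPKM taken by each gene within 3 groups of 6 members each, per library, with circles for NSN, triangles for SN and a line at each mean. Nup37 moves from 53.3% and 53.5% to 59.0% and 59.7% of the sum of the 6 genes grouped here under the Y complex. Kpna7 moves from 23.7% and 22.8% to 18.1% and 19.7% of the importin alpha sum. These shares do not depend on library scaling.

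In the importin beta family, 2 of 11 members were called higher (18.2%), where 5.95% of all genes were; the difference was not tested. Ipo8, which carries cargo such as Argonaute proteins and SMADs (ENSMUSG00000040029.17, chromosome 6 from 148672181 to 148733092), had 40.7 and 45.9 FPKM in NSN and 65.3 and 62.8 FPKM in SN. Both SN libraries were well above both NSN libraries. Its log2 fold change was 0.56 ± 0.09 (SE, adjusted p = 0.036 with limma), or 0.42 relative to all genes. After median scaling it was 0.41 with a limma adjusted p of 0.058. Without NSN replicate 2 the limma adjusted p of Ipo8 was 0.014, without any other library it was 0.079 to 0.093, and it was 0.0014 to 0.092 over the alternatives that kept all libraries. Tnpo1, which imports RNA-binding proteins (ENSMUSG00000009470.19, chromosome 13 from 98974996 to 99069430), had 9.27 and 12.9 FPKM in NSN and 18.5 and 18.1 FPKM in SN. The NSN replicates differed more from each other than the SN replicates did, but all NSN values were lower. Its log2 fold change was 0.72 ± 0.16 (SE, adjusted p = 0.047 with limma), or 0.58 relative to all genes. After median scaling it was 0.57 with a limma adjusted p of 0.073. Without NSN replicate 2 the limma adjusted p of Tnpo1 was 0.0093, without any other library it was 0.10 to 0.12, and over the alternatives that kept all libraries it was 0.0020 to 0.099.

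At the other end, Ipo13 had 0.799 and 0.839 FPKM in NSN and 0.636 and 0.541 FPKM in SN. Both SN libraries were lower, and the log2 fold change of -0.28 ± 0.18 (SE) was not called (limma adjusted p = 0.32). Of the 11 import receptors 7 (63.6%, against 66.7% of all genes) had a log2 fold change above 0 and 4 below 0, with a median of 0.12, and Ipo11 turned negative after median scaling. Ipo8 made up 58.2% and 57.7% of the family's summed FPKM in NSN and 60.3% and 60.8% in SN. Kpnb1, the partner of the importin alphas, had a mean of 5.15 FPKM. Its log2 fold change of 0.51 was not called (limma adjusted p = 0.11). Kpnb1 was called with voom but not with voom and median scaling, and it is named here after its values were seen. Paralogues again differed in level. Ipo7, 64.4% identical to Ipo8 in protein sequence, had a mean of 0.909 FPKM against 53.7 FPKM, and Tnpo2, 85.7% identical to Tnpo1, had 0.581 FPKM against 14.7 FPKM (pairs chosen after the values were seen).

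The exportins had the lowest sum of the 3 groups of receptors, with summed FPKM of 17.6 and 18.4 in NSN and 22.6 and 19.6 in SN. Xpo1, the general exporter of proteins with a leucine-rich signal, led with a mean of 8.20 FPKM. The 4 exportins tested had log2 fold changes from -0.052 for Xpo5 to 0.53 for Xpo4, and none was called by the test described above. With voom Xpo4 and Xpo6 were called, and with voom and median scaling only Xpo4 was. Xpo5, which exports microRNA precursors, made up 34.9% and 35.8% of the group in NSN and 28.0% and 30.2% in SN. Xpo4 averaged 9.87% of the group over the NSN libraries (SD 0.19, n = 2) and 13.3% over the SN libraries (SD 0.093, n = 2). The shares of Xpo5 and Xpo4 thus moved in opposite directions with no overlap, but shares of the same sum are not independent. The FPKM of Xpo5 itself overlapped, with 6.15 and 6.58 in NSN and 6.33 and 5.92 in SN (limma adjusted p = 0.79). Xpot, the tRNA exporter, was not tested, and it had 27 and 20 read pairs in NSN and 8 and 2 in SN. Xpo7 had 59 and 93 read pairs in NSN and 99 and 113 in SN.

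Of 41 other genes of the pore and of transport, 39 were listed and all 39 were tested, with 3 called higher (7.69%) and 1 lower (2.56%) in SN, against 5.95% and 1.98% of all genes, and a median log2 fold change of 0.15 against 0.14. Among 11 other pore genes, Ahctf1 (ELYS), which seeds pores on chromatin, had 3.07 and 3.66 FPKM in NSN and 5.65 and 5.51 FPKM in SN. It was the only call of that list, with a log2 fold change of 0.66 ± 0.14 (SE, adjusted p = 0.045 with limma), and a limma adjusted p of 0.068 after median scaling. Sec13, shared by the pore and by COPII vesicles, was the most abundant, with 466 and 449 FPKM in NSN and 383 and 374 FPKM in SN (log2 fold change -0.27, limma adjusted p = 0.059, and 0.0072 to 0.17 over the alternatives that kept all libraries).

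Among 8 Ran cycle genes, Rangap1, the activator of Ran's GTPase, had 3.59 and 3.25 FPKM in NSN and 1.81 and 2.01 FPKM in SN. It was the only gene called lower, with a log2 fold change of -0.70 ± 0.15 (SE, adjusted p = 0.044 with limma), and it was also called after median scaling (limma adjusted p = 0.0497). Ranbp9, a Ran-binding scaffold protein, had 22.9 and 27.2 FPKM in NSN and 38.0 and 37.4 FPKM in SN. Its log2 fold change was 0.58 ± 0.11 (SE, adjusted p = 0.039 with limma), with a limma adjusted p of 0.061 after median scaling. Its level is uncertain, as 32.0% of the length of its exons is shared with other genes, chiefly Nol7. Nutf2, the importer of Ran, was the most abundant, with 73.0 and 72.5 FPKM in NSN and 75.0 and 84.5 FPKM in SN. Its log2 fold change was 0.13 (limma adjusted p = 0.35), turning to -0.025 after median scaling (limma adjusted p = 0.88).

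None of 6 other transport receptors was called, and the most abundant, Snupn, the adaptor for spliceosomal snRNPs, had 114 and 107 FPKM in NSN and 121 and 127 FPKM in SN (log2 fold change 0.16, limma adjusted p = 0.20, and 0.0082 with an adjusted p of 0.96 after median scaling). Among 14 mRNA export genes, Thoc1, a subunit of the THO complex, had 29.8 and 35.1 FPKM in NSN and 56.3 and 52.9 FPKM in SN. It was the only call of that list, with a log2 fold change of 0.75 ± 0.11 (SE, adjusted p = 0.036 with limma), and it was also called after median scaling (limma adjusted p = 0.047). Of its annotated exon length of 11225 bases, 25.0% is shared, chiefly with Usp14, so its level is uncertain too. The length recovered from its FPKM was 2067 bases, so this share may not hold for the exons counted. Thoc1 also had the highest mean of the list, 43.5 FPKM. Thoc3, of the same complex and next in mean at 41.4 FPKM (named after its values were seen), had 39.6 and 38.0 FPKM in NSN and 43.9 and 43.9 FPKM in SN (log2 fold change 0.18, limma adjusted p = 0.19). Without NSN replicate 2 all 4 of these genes were still called (limma adjusted p from 0.0093 to 0.040), and without any other library none was (0.064 to 0.15). Over the alternatives that kept all libraries their limma adjusted p ranged from 0.0019 to 0.092 for Ahctf1, 0.0055 to 0.092 for Rangap1, 0.0023 to 0.092 for Ranbp9 and 0.00086 to 0.092 for Thoc1. Nup62cl and Rangrf were not analysed here.

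Stored oocyte messages can be held with short poly(A) tails and extended later through a cytoplasmic polyadenylation element near the 3′ end, and these libraries were primed at the tail. The last 100 bases of each gene's canonical GENCODE transcript were therefore searched on the sense strand for the letters TTTTAT or TTTTAAT, which do not contain each other. They occurred in 9 of the 43 members (20.9%), all of them among the 37 tested (24.3%), and in 17.9% of 9610 protein-coding genes tested. Members with the letters had a median log2 fold change of 0.31 (n = 9) and those without 0.11 (n = 28), where the protein-coding genes had 0.16 (n = 1723) and 0.12 (n = 7887). The members ranged from -0.27 to 0.56 with the letters and from -0.28 to 0.72 without them, and the difference was not tested. Kpna2, Kpna7 and Tnpo1 had no match in this window, and tail length was not measured. The matches are shown for the 5 members given above with the FPKM of every library that hold them, 30 bases each, with the searched letters in capitals. Nup54 has 2 matches, followed by 4 and 51 bases, and the one nearer the end is shown.
Ipo8, chr6:148672214-148672243, minus strand: aaatgcaggaacTTTTATgaatgtactgta
Nup37, chr10:88014162-88014191, plus strand: aaaaatccttatTTTTATatcaaacatact
Nup54, chr5:92563399-92563428, minus strand: aataaattgttaatttgtaaTTTTATgtaa
Nup88, chr11:70833898-70833927, minus strand: gtttgaataaatTTTTATtcaaaaatttga
Nup98, chr7:101768686-101768715, minus strand: ttatgtaaaggtTTTTATtaaaaaatatat
Each lies in the 3′ untranslated region on GRCm39. In Nup98, 93 bases follow the letters, and in Nup54 and Nup88 the letters come after the bases aataaa. A match is a run of letters and not a tested element.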

How the data were processed

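The authors trimmed the reads with Trim Galore 0.6.10, aligned them with HISAT2 to the GRCm39 genome, assigned read pairs to GENCODE exons with featureCounts (primary alignments, mapping quality of at least 10, no strand), and deposited FPKM made with a script of their own. DESeq2, which they ran on counts, was not used here. The 43 members and the gene lists were chosen with earlier results of these data known. Whole read pairs and a length were recovered from the FPKM of 16838 genes (99.9%), with totals set from 5 mitochondrial tRNA genes (relative tolerance 1e-11), and the recovered lengths often differ from annotated exon lengths. At these totals 3 read pairs on 1 kb are 0.167 to 0.176 FPKM, which covers counting error only, since amplified pairs are not independent molecules. limma 3.58.1 (R 4.3.3; lmFit, eBayes with a variance trend, two-sided) was fitted to log2(FPKM + 0.5) of the 2 NSN and 2 SN libraries for genes averaging 0.5 FPKM or more, without a block, and p-values were adjusted over all 11672 genes. The steps were tested on simulated data. Alternatives were other pseudocounts and filters, median scaling, no variance trend, a replicate block, voom on the recovered read pairs and leaving out each library. The rule for genes given with every library took members called and the 10 most abundant. It also took the 3 largest positive and 3 largest negative log2 fold changes. Kpna7, Nup50l and Nup210l were named in it too, but the transcript level of Nup50l was not analysed. Of the other lists, the rule took genes called and the most abundant. Replicates of a group differed by more than counting noise (chi-square per degree of freedom 7.16 for NSN and 7.92 for SN). The labels do not say whether replicates came from separate animals, so p-values measure only the spread between these libraries, which may be technical. The protocol speaks of 3 samples per group, and 2 were used here. Transcripts, gene positions and shares of exons are from GENCODE vM39 on GRCm39, and all 43 symbols matched. The authors counted on release vM34, so these shares may differ for the exons they used. Protein identities are from translated coding sequences aligned end to end (Biopython 1.88, BLOSUM62).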

Additional observations from a re-analysis of the deposited data

How the results depend on the processing

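The counts depended on most settings, and where a value moved the cause was not tested, except that fewer libraries or genes entered where some were left out. Against 926 genes and 3 members called, all listed genes gave 0 and 0 and no variance trend 0 and 0 (an unadjusted p under 0.05 was held by 4092 and 3449 genes, and by 14 and 10 members). A mean FPKM of at least 5 gave 1496 of 5519 genes (27.1%) and 8 of 24 members (33.3%), median scaling 257 and 0, voom on the recovered read pairs 2297 of 11660 genes (19.7%) and 11 of 37 members (29.7%), and voom with median scaling 1707 (14.6%) and 9 (24.3%). The share of the called genes that was higher in SN was 75.1%, and 30.4% with median scaling, 43.6% with voom and median scaling, 34.5% without SN replicate 1 and 36.4% of 11 genes without SN replicate 2. Pseudocounts of 0.1 and 1 gave 773 and 946 genes, with 1 member (Ipo8) and 3 members. Leaving out each library gave 0 to 1685 genes and 0 to 6 members, with 0 members without NSN replicate 1, SN replicate 1 or SN replicate 2 and 6 (16.2%, against 14.4% of all genes) without NSN replicate 2, Ipo8 and Tnpo1 among them; here the library left alone is assumed to vary like the other group. The replicate block gave 422 genes and 1 member, Ipo8. The replicate differences of NSN and SN correlated at -0.07 over 11672 genes, so libraries with the same number did not deviate together. This cannot show whether they were collected together, which the labels do not say.

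The median log2 fold change of the members, 0.11, was -0.043 with median scaling and -0.045 with voom and median scaling, and 0.038 to 0.18 without each library. With the same 2 settings Kpna2 turned to -0.050 and -0.050, Nup54 to -0.12 and -0.12, Nup98 to -0.055 and -0.054, and Nutf2 to -0.025 and -0.024. Kpna2 was 0.024 and Nutf2 0.21 where SN replicate 1 was dropped, and they were 0.18 and 0.044 where SN replicate 2 was. Without each library Nup35 ranged from -0.15 to 0.052 and Nup98 from -0.046 to 0.24. Of 177 values of the 20 named genes over the alternatives that kept all libraries, 129 kept their sign and side of the threshold, 26 lost a call, 14 gained one and 8 changed sign.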

Other observations

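Across the 37 members tested, the log2 fold change of SN over NSN went with the gene length recovered from the FPKM (Spearman's rho 0.49 across genes, which share libraries and are not independent), whereas over 11660 genes tested rho was 0.057. The 19 members at or above the median length of 4763 bases had a median log2 fold change of 0.24, and 11 of them (57.9%) lay above NSN in both SN libraries and 1 (5.26%) below. The 18 shorter members had a median of 0.00017, with 5 above (27.8%) and 5 below (27.8%). Over all genes, the 2372 at or above 4763 bases had a median of 0.23, with 63.1% above and 10.5% below, and the 9288 shorter ones 0.11, with 40.2% above and 19.7% below. The 3 members called, all higher in SN, were Ipo8 and Tnpo1, with lengths of 5360 and 8579 bases, and Nup37, with 1360 bases, and the part of length in these calls was not tested.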
